A study of Homo sapiens with 6 samples.

Results

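The mitosis and G2/M genes are a hand-listed set of 44 protein-coding genes that run entry into and passage through cell division, chosen by symbol among the 60663 genes of the count table. They were measured by RNA sequencing in CCD18Co, a line of human fibroblasts from normal colon. All 6 libraries came from cells transfected with siRNA by lipofectamine and collected 48 h later: 3 received siRNAs against *LTBP2* (siLTBP2), and 3 a non-targeting pool (siNT). One cell line and 1 siRNA reagent per group were used, so the loss of *LTBP2* and off-target silencing by the same siRNAs cannot be told apart. The labels number the replicates without saying that they were separate cultures, so the p-values measure the spread between these libraries, which may be technical.

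Cells in G2 build up cyclin B, which binds the kinase CDK1, and the activity of the pair starts mitosis. Polo-like and Aurora kinases, a checkpoint at the kinetochores and the anaphase-promoting complex (APC/C) then order chromosome attachment, separation and cytokinesis. Many of these genes are transcribed together late in the cycle by FOXM1 and by MYB-MuvB complexes, and are held down in resting cells by the DREAM complex, which binds the CHR element near their start sites. In a culture of dividing fibroblasts they therefore mark cycling cells.

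*LTBP2*, which encodes a latent TGF-beta binding protein of the extracellular matrix, had 1155, 1141 and 1143 counts in siNT replicates 1, 2 and 3, and 283, 407 and 316 counts in siLTBP2. Levels are given as CPM, the counts of a gene scaled to the size of its library. The mean CPM in siLTBP2 was 30.4% of that in siNT (log2 fold change -1.72, standard error (SE) 0.15, adjusted p = 6.6e-05). The gene counts of a library summed to 44663424 at the least and 53576899 at the most. All 12 fibroblast markers passed the filter on low counts, with summed levels of 13074 to 17419 CPM in siNT and 12880 to 18413 CPM in siLTBP2, and *PDGFRB* was the single one called, lower by a log2 fold change of -0.60. The 6 epithelial markers summed to at most 0.529 CPM in any library, the 5 immune markers to at most 0.613 CPM and the 5 endothelial markers to at most 2.01 CPM.

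Most mitosis and G2/M genes were higher after *LTBP2* silencing, each by less than 2-fold. All 44 passed the filter on low counts. By edgeR's quasi-likelihood test, 30 of them (68.2%) were higher in siLTBP2 at a Benjamini-Hochberg adjusted p below 0.05 over 16920 genes, where 9.76% of all genes tested were called higher. None was called lower, against 9.51% of all genes. DESeq2 also called 0 lower, the likelihood ratio test called 1, and 1 was lower at an unadjusted p below 0.05, *SPC24* in each case. The log2 fold change was positive for 43 genes and negative for 1, with a median of 0.47 (a fold of 1.38), where the median of all genes tested was -0.0056. In 34 genes every siLTBP2 library lay above every siNT library (18.7% of all genes tested), in 1 every siLTBP2 library lay below (18.3%), and in 9 the groups overlapped. An exact two-sided permutation test of 3 libraries against 3 cannot go under p = 0.1, so calls rest on the fit across all genes. Under stricter thresholds, an adjusted p under 0.01 together with more than a 2-fold change, none of the 44 passed, by this test, the likelihood ratio test or DESeq2, against 2.57% of all genes tested in either direction.

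**Figure D1:**
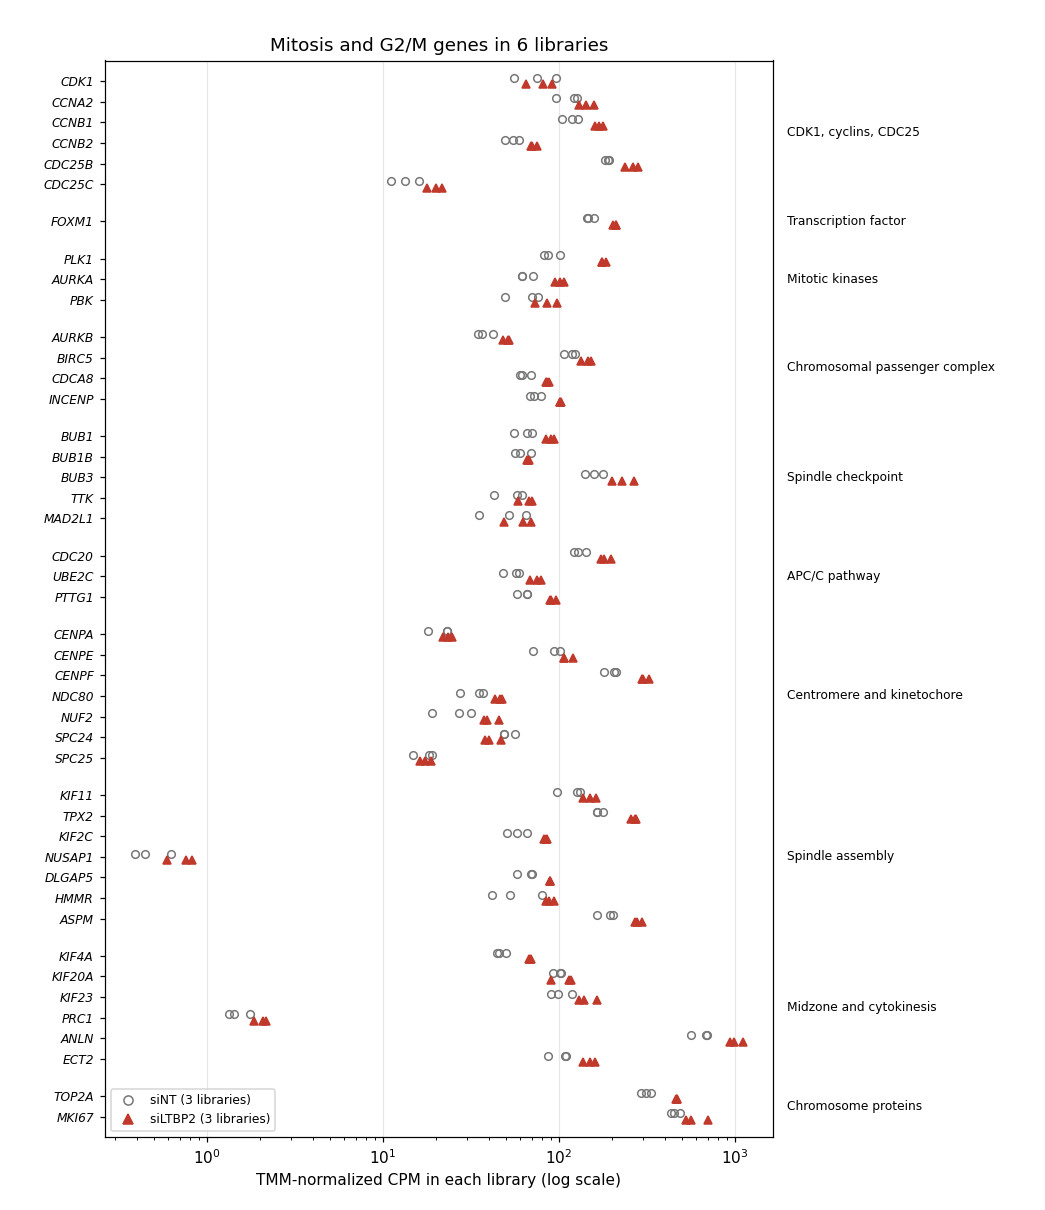
Level of each of the 44 genes in each library, in TMM-normalized CPM on a log axis, grouped by role; open circles are the 3 siNT libraries and filled triangles the 3 siLTBP2 libraries. The triangles lie right of every circle in 34 genes, *SPC24* is the 1 gene with every triangle to the left, and *NUSAP1* and *PRC1* stand far below the rest.

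As a share of all counts, the 44 genes took 0.423%, 0.510% and 0.503% in siNT replicates 1, 2 and 3, and 0.638%, 0.659% and 0.672% in siLTBP2. The groups did not overlap, and siNT replicate 1 was the lowest library. It held the lowest siNT value for 38 of the 44 genes. Without it 21 genes were called higher and the median log2 fold change was 0.41, and without siLTBP2 replicate 2 the count was 22, with *SPC24* called lower. Over all genes tested, 1126 of 17445 were called higher without siNT replicate 1 and 1042 of 17459 without siLTBP2 replicate 2. Of the 30 calls, 21 held with any 1 library left out. The other 9 were lost without siNT replicate 1, namely *CCNB2*, *CDC25C*, *AURKB*, *BIRC5*, *UBE2C*, *NDC80*, *HMMR*, *KIF23* and *MKI67*, and each of them also in 1 or more other fits with a library left out. In bulk RNA a larger share of cells in G2 or mitosis and more of these transcripts per cell cannot be told apart.

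The promoters of these genes share short sequence elements that the choice of the genes did not use. RefSeq promoters (GRCh38.p14, 250 bases before to 50 after the start) were at hand for 36 of the 44. Only the first promoter listed for each gene was searched, so other starts of a gene were not covered. The CHR element, searched as TTTGAA on both strands, stood in 25 of the 36 (69.4%), against 9.9% of the 10857 promoters of genes tested and 15.4% of all 27305 promoters. The CCAAT box, searched as CCAAT on both strands, stood in 28 (77.8%), against 37.0% of the promoters of genes tested. The words TTTGGCG and TTTCGCG, forms of the E2F site, stood in 4 (11.1%), against 5.4%. A CHR variant, TTCGAA, searched apart and not counted as a CHR element here, stood in 2 (5.6%), against 1.8%. Of 34 CHR matches, 27 were on the gene's own strand, 21 genes had 1 or more between 60 bases before and 50 bases after the start, and 21 genes had both a CHR element and a CCAAT box. *CDC25B*, *CDC25C*, *CENPE* and *KIF2C* had neither in the promoter searched. Of 43 promoters of other mitotic genes, outside the 44, 25 (58.1%) had a CHR element and 30 (69.8%) a CCAAT box.

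The windows below show CHR elements in genes that rose and in 2 that did not pass the test (*BUB1B* and *SPC25*). They are written 5′ to 3′ on the gene's strand, with the element in capitals.
PLK1 (chr16:23678848-23678877, plus strand): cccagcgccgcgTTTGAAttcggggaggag
CCNB2 (chr15:59105105-59105134, plus strand): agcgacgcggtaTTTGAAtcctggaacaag
INCENP (chr11:62123989-62124018, plus strand): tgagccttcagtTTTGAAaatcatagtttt
CDC20 (chr1:43358904-43358933, plus strand): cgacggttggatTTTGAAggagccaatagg
KIF4A (chrX:70290058-70290087, plus strand): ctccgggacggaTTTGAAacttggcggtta
ANLN (chr7:36389830-36389859, plus strand): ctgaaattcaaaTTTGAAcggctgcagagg
MKI67 (chr10:128126435-128126464, minus strand): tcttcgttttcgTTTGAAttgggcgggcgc
BUB1B (chr15:40161034-40161063, plus strand): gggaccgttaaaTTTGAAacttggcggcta
SPC25 (chr2:168890416-168890445, minus strand): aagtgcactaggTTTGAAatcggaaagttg
In *PLK1* the element began 29 bases before the start, and a CCAAT box began 73 bases before it. Of the 25 genes with a CHR element 17 were called higher (68.0%, median log2 fold change 0.47), and of the 11 without it 7 were (63.6%, median 0.47). Among the 11 is *BUB1*, called higher, whose promoter holds the variant TTCGAA. Among tested genes in none of the cell cycle lists, 13.4% of 1012 with the element and 10.8% of 9662 without it were called higher. Among 56 other mitotic genes the gap was wider, with 17 of 25 (68.0%, median 0.43) called higher with the element and 8 of 18 (44.4%, median 0.23) without it, among those with a promoter at hand. None of these differences was tested.

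**Figure D2:**
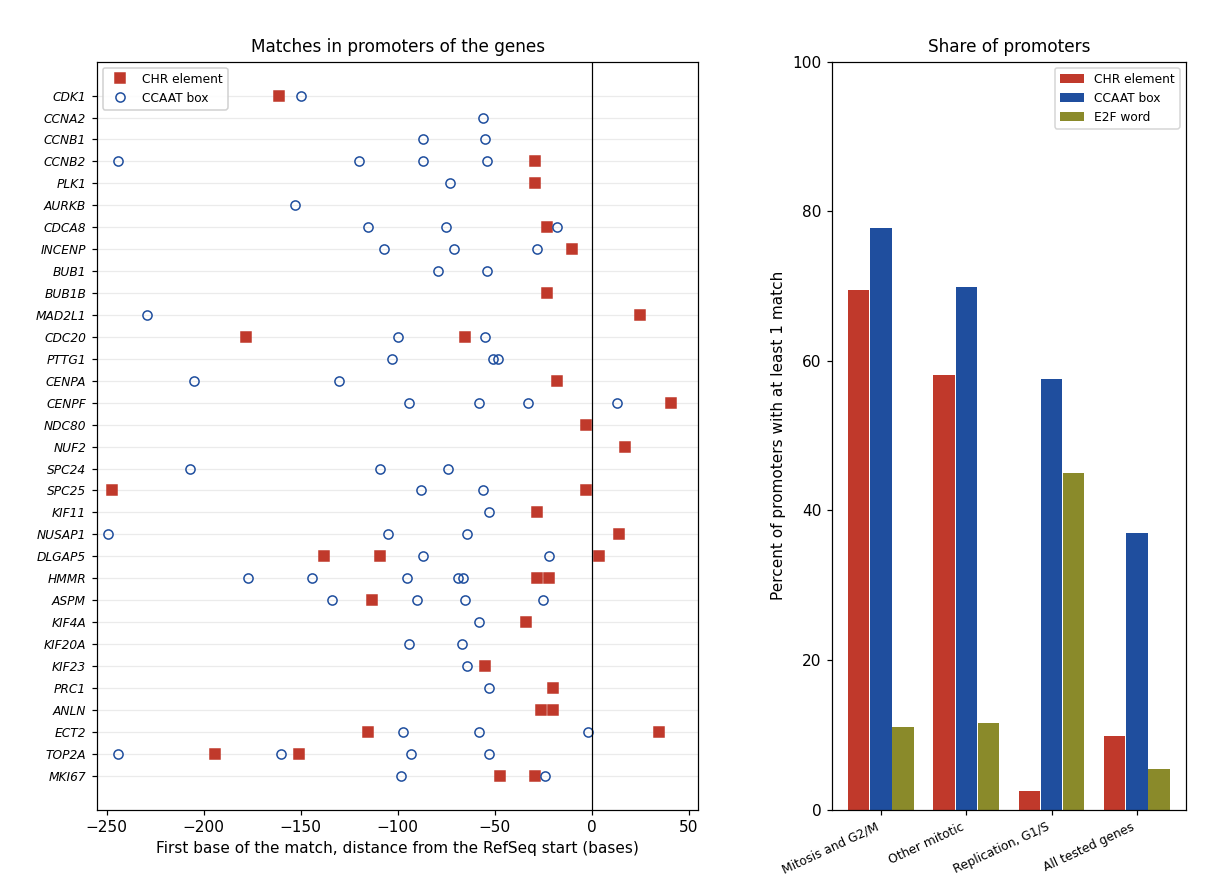
Left, first base of each CHR element (squares) and CCAAT box (circles) against distance from the RefSeq start in bases, for the genes with 1 or more matches; right, percent of promoters with each element in 4 gene lists. CHR elements gather near the start. They are in 69.4% of mitosis and G2/M promoters, 58.1% of other mitotic and 2.5% of replication promoters. In the same order, the CCAAT box is in 77.8%, 69.8% and 57.5% and the E2F words in 11.1%, 11.6% and 45.0%.

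The mitotic kinases held the largest change. *PLK1*, the polo-like kinase of centrosome maturation and mitotic entry, was at 82.3, 87.2 and 101 CPM in siNT and at 176, 175 and 186 CPM in siLTBP2. Its groups were far apart, at 90.2 ± 9.73 and 179 ± 6.19 CPM (SD, n = 3). The log2 fold change was 0.99 (SE 0.09, adjusted p = 0.000109), a fold of 1.98 just under the fold threshold of 2, and it was 1.08 without siNT replicate 3 and 1.00 without siLTBP2 replicate 1, both above that threshold. *AURKA*, the centrosomal Aurora kinase, rose by 0.64 on the log2 scale. *PBK*, a kinase active in mitosis, had a log2 fold change of 0.39 with overlapping groups (adjusted p = 0.106).

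Of the CDK1, cyclin and CDC25 genes 4 of 6 rose. *CCNB1*, cyclin B1, was at 105, 119 and 128 CPM in siNT and at 161, 178 and 168 CPM in siLTBP2. Every siLTBP2 library was above every siNT library (log2 fold change 0.53, SE 0.09, adjusted p = 0.00342). *CCNB2*, cyclin B2, rose by 0.40, and the phosphatases that activate CDK1, *CDC25B* and *CDC25C*, by 0.47 and 0.54 on the log2 scale. *CDK1* itself was at 55.3, 95.6 and 74.9 CPM in siNT and 65.2, 81.5 and 91.1 CPM in siLTBP2, so the groups overlapped. Its log2 fold change of 0.07 had a 95% interval from -0.32 to 0.47. *CCNA2*, cyclin A2, had a log2 fold change of 0.32 (adjusted p = 0.0857) with groups that did not overlap.

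*FOXM1*, the forkhead factor of G2/M transcription, was at 145, 147 and 158 CPM in siNT and at 210.1, 212 and 204 CPM in siLTBP2. The siLTBP2 libraries varied little and lay above every siNT library (log2 fold change 0.47, SE 0.08, adjusted p = 0.00249). *ITFG2* shares 15.9% of the exon bases of *FOXM1* on the other strand and had 677 to 815 counts, and whether the counting used strand is not given in the sources used here.

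All 4 genes of the chromosomal passenger complex, which corrects faulty attachments and later directs cytokinesis, rose. *INCENP*, its scaffold, was at 71.8, 68.3 and 79.4 CPM in siNT and at 101, 101 and 102 CPM in siLTBP2. The siLTBP2 values were nearly equal and above all siNT values (log2 fold change 0.47, SE 0.08, adjusted p = 0.00321). The kinase *AURKB* (0.42), the targeting subunit *CDCA8* (0.43) and *BIRC5*, survivin (0.31), rose with it on the log2 scale.

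In the spindle checkpoint, which delays anaphase until chromosomes are attached, 2 of 5 genes rose. *BUB1*, a kinetochore kinase, was at 55.4, 65.4 and 69.8 CPM in siNT and 84.3, 90.3 and 94.1 CPM in siLTBP2, with no overlap (log2 fold change 0.49, SE 0.10, adjusted p = 0.00653). *BUB3*, the adaptor that brings BUB1 to kinetochores, rose by 0.55 on the log2 scale. *BUB1B*, which encodes the inhibitor BUBR1, was at 56.5, 59.8 and 69.3 CPM in siNT and 67.4, 66.7 and 66.0 CPM in siLTBP2. Its groups overlapped (log2 fold change 0.11, 95% interval -0.10 to 0.31). *TTK* (0.27, adjusted p = 0.181) and *MAD2L1* (0.24, adjusted p = 0.436) overlapped too, and siNT replicate 1 had the lowest of the 6 values of each, 43.0 and 35.3 CPM.

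The 3 genes of the APC/C pathway all rose. *PTTG1*, securin, whose destruction frees separase, was at 57.4, 65.5 and 65.8 CPM in siNT and 89.8, 96.4 and 88.6 CPM in siLTBP2. The groups were apart (log2 fold change 0.54, SE 0.09, adjusted p = 0.00195), and the near-identical copies *PTTG2* and *PTTG3P* had at most 1 and 13 counts. *CDC20*, the mitotic activator of the APC/C, rose by 0.48, and *UBE2C*, its ubiquitin-conjugating enzyme, by 0.44 on the log2 scale.

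At the centromere and kinetochore 3 of 7 genes rose. *CENPF*, a large outer kinetochore protein, was at 180.0, 206 and 211 CPM in siNT and at 324, 296 and 302 CPM in siLTBP2. The groups were far apart (log2 fold change 0.63, SE 0.09, adjusted p = 0.00117). *CENPE*, a kinetochore motor, had a log2 fold change of 0.32 (adjusted p = 0.0985) and *CENPA*, the centromeric histone, one of 0.13 (95% interval -0.13 to 0.39).

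The NDC80 complex, which binds microtubules, is a rod of 4 proteins in 2 pairs. The microtubule-binding pair rose, *NDC80* by 0.46 and *NUF2* by 0.65 on the log2 scale. *SPC24*, of the pair that anchors the rod to the centromere, was at 48.7, 56.1 and 48.8 CPM in siNT and at 39.8, 46.5 and 38.1 CPM in siLTBP2. Every siLTBP2 value was below every siNT value, with a log2 fold change of -0.30 (SE 0.10) that did not pass the threshold (adjusted p = 0.0649, 95% interval -0.53 to -0.07). It passed with the likelihood ratio test, with no low-count filter, with the replicate number as a block and without siLTBP2 replicate 2. *SPC25*, its partner, was at 14.8, 19.0 and 18.2 CPM in siNT and 16.1, 17.2 and 18.8 CPM in siLTBP2, with overlapping groups (log2 fold change 0.01, 95% interval -0.26 to 0.27).

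Ratios within a library set these partners side by side; the pairs were chosen after the values were seen, and no test was made. *SPC24* over *NDC80* was 1.78, 1.59 and 1.32 in siNT and 0.916, 1.01 and 0.804 in siLTBP2. *SPC25* over *NUF2* was 0.784, 0.603 and 0.673 in siNT and 0.432, 0.445 and 0.415 in siLTBP2. Neither ratio overlapped between the groups. Both set a gene that was not called over a gene that rose, and the share of all gene pairs without overlap was not counted. *PLK1* over *CCNB1* was 0.788, 0.733 and 0.791 in siNT and 1.09, 0.979 and 1.11 in siLTBP2, again without overlap, while *CDK1* over *CCNB1* overlapped, at 0.529, 0.804 and 0.587 against 0.406, 0.457 and 0.543.

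**Figure D3:**
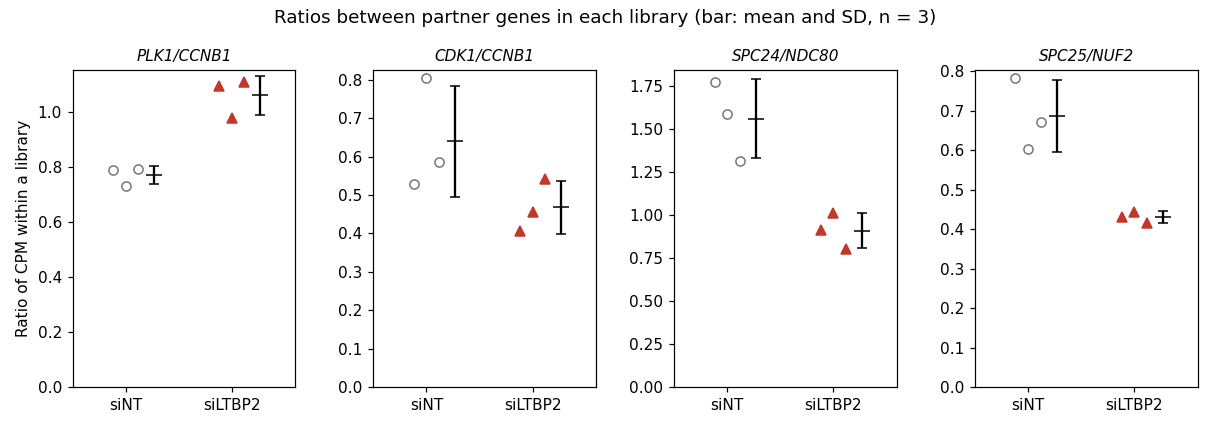
Ratio of the CPM of 2 genes within each library (vertical axis, from 0) for 4 pairs; circles are siNT libraries, triangles siLTBP2 libraries, and the bar gives the mean and SD (n = 3). *PLK1*/*CCNB1* is higher in siLTBP2 (1.06 against 0.771) and *SPC24*/*NDC80* (0.911 against 1.56) and *SPC25*/*NUF2* (0.431 against 0.687) are lower, while the *CDK1*/*CCNB1* libraries overlap.

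The 3′ UTRs were searched for 1 word of 7 bases. This word, GCACCCA, had been picked out in an earlier search of these same data as one whose carriers were lower in siLTBP2, so what follows is a description. Of the 44 genes, 4 carried it in the 3′ UTR of the canonical GENCODE 44 transcript (9.1%, against 11.8% of 12314 genes tested). Of these carriers, 3 are given here, with the word in capitals, 5′ to 3′ on the gene's strand, in GRCh38.
SPC24 (chr19:11147140-11147169, minus strand): ggctgcgtcttGCACCCAgcgggcatctgc
CENPA (chr2:26793280-26793309, plus strand): gctcctGCACCCAgtgtttctgtcagtctt
BUB3 (chr10:123168831-123168860, plus strand): catgagccactGCACCCAgctgtgactttt
*SPC24* and *CENPA* are at -0.30 and 0.13 on the log2 scale, and *BUB3*, whose copy lies at base 5007 of a 3′ UTR of 6632 bases, rose. The median log2 fold change was 0.07 for the 4 and 0.47 for the other genes of the list.

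Of the genes of spindle assembly 5 of 7 rose. *TPX2*, which activates AURKA on the spindle, was at 165, 165 and 177 CPM in siNT and 275, 271 and 256 CPM in siLTBP2. It had the second smallest p of the 44 genes, and the groups were far apart (log2 fold change 0.66, SE 0.08, adjusted p = 0.000414). *KIF2C*, which depolymerizes microtubules at kinetochores, rose by 0.54, *ASPM*, a spindle pole protein, by 0.59, *DLGAP5*, which stabilizes spindle fibres, by 0.43 and *HMMR*, a spindle protein, by 0.61 on the log2 scale. *HMMR* was at 41.6, 80.1 and 52.8 CPM in siNT, and passed in 2 of the 6 fits with a library left out. *KIF11*, the motor that separates the poles, had a log2 fold change of 0.34 (adjusted p = 0.0726).

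Of the genes of the spindle midzone and cytokinesis 4 of 6 rose. *KIF4A*, a motor that sets the length of midzone microtubules, was at 44.4, 45.7 and 49.7 CPM in siNT and 68.6, 67.6 and 69.7 CPM in siLTBP2. The values were tight within each group (log2 fold change 0.56, SE 0.08, adjusted p = 0.00117). *ANLN*, anillin of the contractile ring, rose by 0.65, *ECT2*, which activates RhoA there, by 0.55 and *KIF23*, a motor of centralspindlin, by 0.49 on the log2 scale. *KIF20A*, a motor that moves the passenger complex to the midzone, had overlapping groups (log2 fold change 0.12, 95% interval -0.11 to 0.36).

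*NUSAP1*, a microtubule bundler, and *PRC1*, the midzone crosslinker, were counted at very low levels for genes of this kind. *NUSAP1* was at 0.389 to 0.826 CPM and *PRC1* at 1.34 to 2.16 CPM over the 6 libraries. In GENCODE 44, 86.8% of the exon bases of *NUSAP1* lie in exons of other genes on the same strand, and 81.4% in the unnamed gene ENSG00000285920 alone, which had 0 counts in every library. For *PRC1* the share is 57.6%, with ENSG00000284946, which had 173 to 273 counts. The next highest same-strand shares among the 44 genes were 10.2% for *BUB1B* and 7.1% for *CENPA*. The part of these overlaps in the low counts was not tested. *NUSAP1* had a log2 fold change of 0.57 (adjusted p = 0.199) and *PRC1* one of 0.43 (adjusted p = 0.162).

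Both chromosome proteins rose. *TOP2A*, topoisomerase II alpha, was at 291, 312 and 335 CPM in siNT and at 466, 466 and 459.7 CPM in siLTBP2. Every siLTBP2 library was above every siNT library (log2 fold change 0.57, SE 0.09, adjusted p = 0.00159). *MKI67*, which encodes the proliferation antigen Ki-67, rose by 0.38 on the log2 scale (adjusted p = 0.0452), from 457 ± 28.4 to 596 ± 92.5 CPM (SD, n = 3), and passed in 1 of the 6 fits with a library left out.

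Per kilobase of exon, the siNT levels were highest for *ANLN* (108 CPM per kb), *CDC20* (65.2), *TOP2A* (49.1), *CDC25B* (48.3) and *CCNB1* (48.1), and the lowest apart from *NUSAP1* and *PRC1* was *CDC25C* at 4.07 CPM per kb. *CDK1*, *PBK*, *MAD2L1*, *NUF2* and *HMMR* were among the 10% of tested genes whose variance lay furthest above the trend, and of these 5 *NUF2* and *HMMR* were called.

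**Figure D4:**
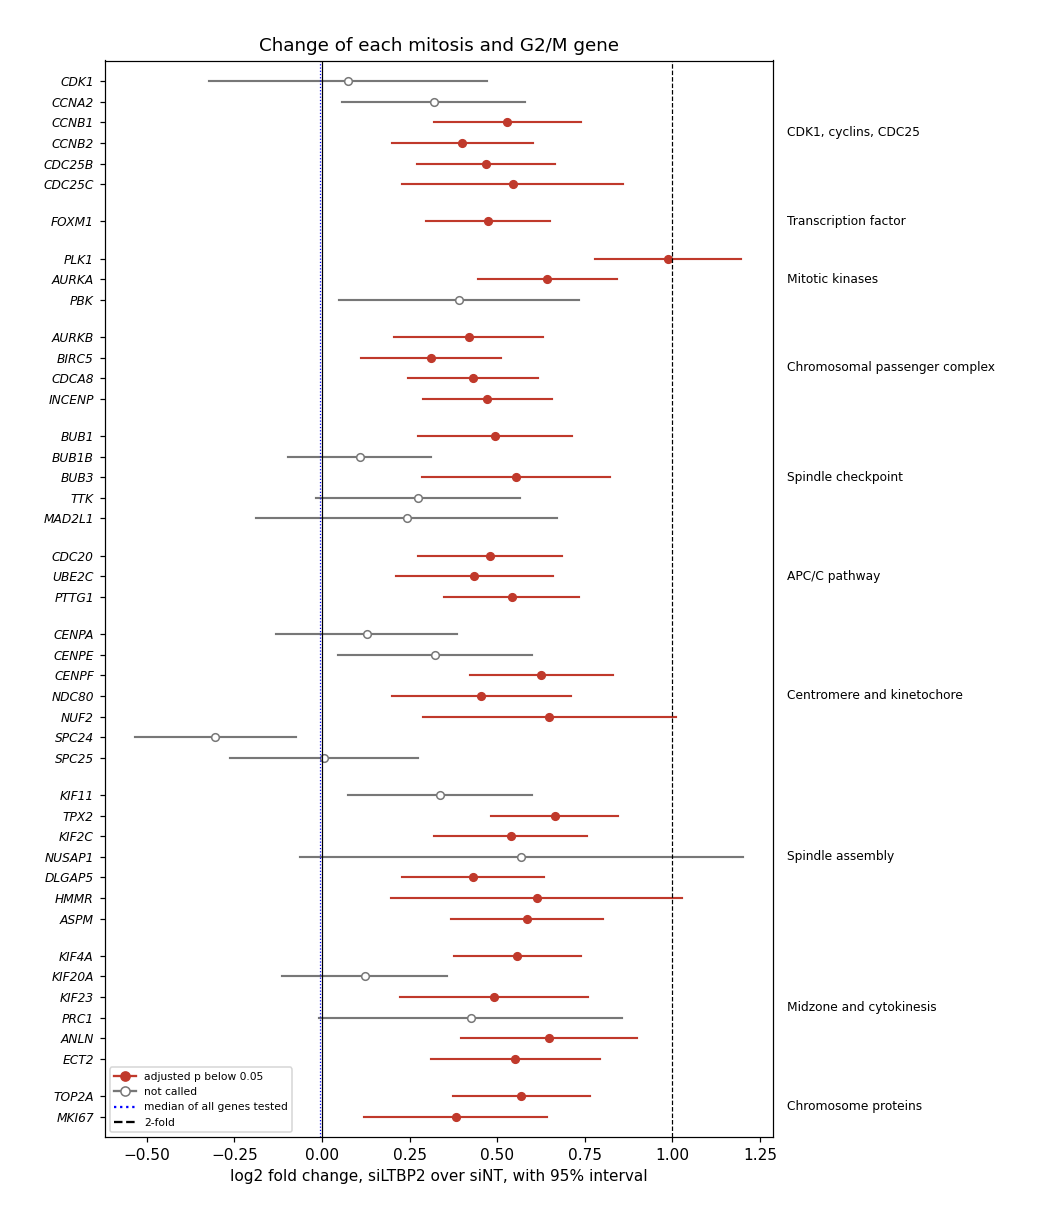
Log2 fold change of each gene, siLTBP2 over siNT, with its 95% interval; filled red points passed an adjusted p of 0.05, the dotted line is the median of all genes tested and the dashed line a 2-fold change. The 30 called genes lie between 0.31 (*BIRC5*) and 0.99 (*PLK1*), and *SPC24* at -0.30 is the 1 gene left of zero.

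Other lists of the mitotic machinery are set against the 9.76% of all genes tested that were called higher and the 9.51% called lower. Of 56 other mitotic genes 32 (57.1%) were higher and 0 lower, by edgeR, the likelihood ratio test and DESeq2 alike for the lower count and with 0 lower at an unadjusted p below 0.05, and the median log2 fold change was 0.39. The examples of smallest p were *SKA3* (0.72), of the complex that ties kinetochores to microtubules, *RACGAP1* (0.58), of centralspindlin, and *CKAP2* (0.52), a spindle protein. Of 20 genes of condensin, cohesin and proteins that act on cohesin, 11 (55%) were higher and 0 lower (median 0.30). Those of smallest p were *SMC4* (0.69), of condensin, *ESPL1* (0.50), which encodes separase, and *SGO1* (0.53), which encodes shugoshin. Of 17 genes of APC/C subunits and proteins that act with them, 3 (17.6%), a share nearer that of all genes, were higher and 0 lower (median 0.10). The 3 were the subunits *CDC27* (0.33), *CDC26* (0.49) and *ANAPC1* (0.30). Neither the likelihood ratio test nor DESeq2 called any gene of the condensin and cohesin list or the APC/C list lower. At an unadjusted p below 0.05, 0 and 1 were lower.

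Among regulators, 12 genes of the MuvB core, the RB family and their E2F and MYB partners were listed. Of them 2 (16.7%) were higher and 0 lower in all 3 tests. The main test called 9.76% of all genes tested higher and 9.51% lower. At an unadjusted p below 0.05, 2 of the 12 were lower, and the median log2 fold change was 0.12. *E2F5*, a repressor E2F, rose from 4.08 ± 0.565 to 8.18 ± 1.36 CPM (SD, n = 3), a log2 fold change of 1.00 (adjusted p = 0.0023), and *RB1* by 0.28. *MYBL2*, which drives G2/M genes with MuvB, was at 63.4, 69.0 and 80.1 CPM in siNT and 53.9, 56.9 and 66.6 CPM in siLTBP2, and its log2 fold change of -0.26 did not pass (adjusted p = 0.136).

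Of 46 genes of DNA replication and G1/S, the nearest stage of the cycle, 10 (21.7%) were higher and 1 lower. Over all genes tested the shares were 9.76% and 9.51%. The median log2 fold change of the list was 0.15. *GINS4* (0.56), *GINS1* (0.65) and *MCM7* (0.49), all of the replicative helicase, rose, and *E2F2*, chosen after its value was seen as the 1 lower gene, fell by 0.64 on the log2 scale. *PCNA*, the sliding clamp, had mean levels of 160.3 CPM in siNT and 167 CPM in siLTBP2 (log2 fold change 0.06, adjusted p = 0.712). The difference between this list and the mitosis and G2/M genes was not tested. In the promoters of this list, a CHR element was in 1 of 40 (2.5%), a CCAAT box in 23 (57.5%) and an E2F word in 18 (45.0%).

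Of 12 genes in a list of cell cycle inhibitors 2 (16.7%) were higher and 1 lower, against 9.76% and 9.51% of all genes tested. At an unadjusted p below 0.05, 2 were lower. *CDKN1A*, which encodes p21, was at 821, 715 and 725 CPM in siNT and 862, 929.7 and 637 CPM in siLTBP2, and the groups overlapped (log2 fold change 0.10, adjusted p = 0.658). *CDKN1C*, p57, rose by 1.32 on the log2 scale, from 1.08 to 2.71 CPM, and *CDKN2C*, p18, rose by 0.29. Of 5 D cyclin and partner kinase genes 2 (40%) were higher and 0 lower. The lower count was 0 in all 3 tests and at an unadjusted p below 0.05. *CCND1*, cyclin D1, rose from 1384 ± 239 to 1893 ± 67.7 CPM (SD, n = 3), a log2 fold change of 0.45 (adjusted p = 0.0348). *CCND2*, cyclin D2, had 5, 3 and 2 counts in siNT and 30, 38 and 19 in siLTBP2, and *CDK4* had a log2 fold change of 0.28 (adjusted p = 0.0681).

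**Figure D5:**
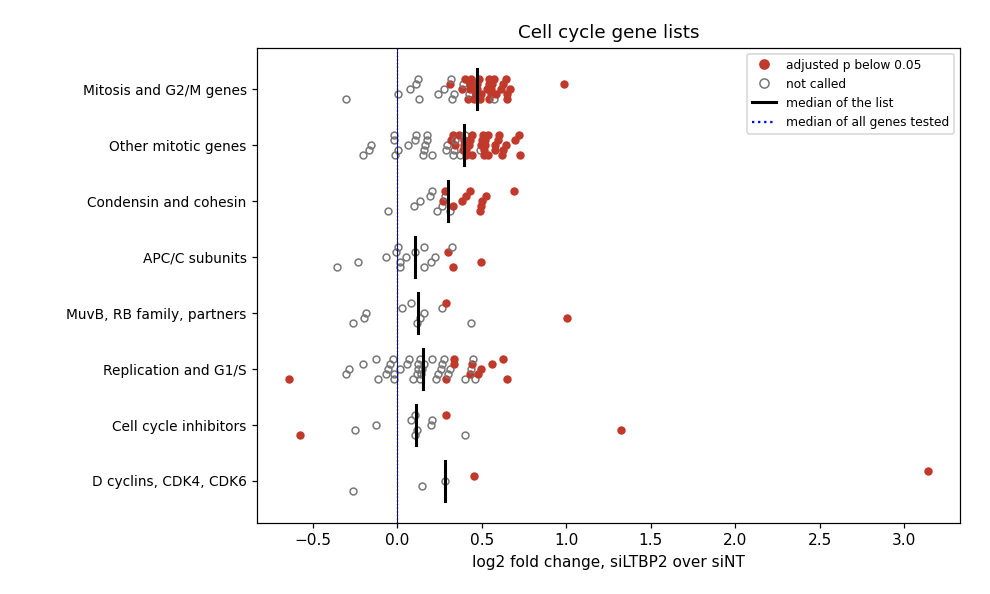
Log2 fold change, siLTBP2 over siNT, of each tested gene in 8 cell cycle lists; filled red points passed an adjusted p of 0.05, thick bars are list medians and the dotted line is the median of all genes tested. The medians run from 0.47 for the mitosis and G2/M genes and 0.39 for other mitotic genes to 0.15 for replication and 0.10 for the APC/C list. The lists marked APC/C subunits and condensin and cohesin also hold genes of proteins that act with these complexes. The point at 3.14 is *CCND2*.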

How the data were processed

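The authors sequenced ribosomal RNA depleted, stranded total RNA libraries of CCD18Co cells and deposited raw counts per gene. Per the labels, the submitters' processing notes name bcl2fastq, STAR 2.7.1a, HTSeq 0.11.2 and GRCh38. The sources used here do not give the annotation release or the counting's strand and overlap settings.

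From these counts, genes were filtered with filterByExpr, scaled by TMM and tested with edgeR 4.0.16 in R 4.3.3 (glmQLFit and glmQLFTest, two-sided, no block, Benjamini-Hochberg over 16920 genes). Calls used an adjusted p below 0.05, and a stricter set an adjusted p below 0.01 with a fold change above 2. CPM are TMM-normalized, and SE is the log2 fold change over the square root of F. In DESeq2 1.42.0, adjusted p-values given as missing were left missing. Replicates of a group differed by more than counting noise. The scripts were tested on simulated data. With dispersions on the trend the main test held its error rate. With the gene-wise dispersions of these data, the share of false calls among all calls was above the nominal level for every test, the main one included, and higher for the likelihood ratio test and DESeq2.

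The 44 genes and the comparison lists were chosen with earlier results of these data known. Full values were given for *PLK1*, for the gene of smallest p in each role and for genes against the majority, and of other lists for the 3 genes of smallest p with *CDKN1A*, *CCND1* and *MYBL2*, except items that are not reported here. Of the table's 60663 identifiers 60462 are in GENCODE 44, 95.7% with the same start. No column of another series was present (0). Alternatives were another test, another scaling, another filter, the replicate number as a block, and leaving out each library.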

Additional observations from a re-analysis of the deposited data

How the results depend on the processing

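The count of genes called higher was 28 to 36 under the other tests, scalings, filters and the block, and 21 to 29 with 1 library left out (21 without siNT replicate 1, 22 without siLTBP2 replicate 2). Over all genes tested, the same fits called 1385 to 3109 and 1042 to 1449 genes higher. The main test called 1652. Of the 44 genes, the count called lower, 0 in the main test, was 1 under the likelihood ratio test, 1 with no low-count filter, 1 with the replicate block, and 0 to 1 with 1 library left out. The count past the 2-fold threshold was 0 to 1 with 1 library left out, the 1 being *PLK1* without siNT replicate 3 or siLTBP2 replicate 1. Other mitotic genes called higher were 17 to 30 with 1 library left out, lowest without siLTBP2 replicate 2 (17) and siNT replicate 1 (19). Replication genes called higher were 6 with total counts only, 21 with the replicate block and 4 to 12 with 1 library left out, and those called lower 3 with the replicate block and 0 to 1 with 1 library left out. The causes were not tested. *LTBP2*, *PLK1* and the median kept their direction in each alternative run.

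Small changes turned direction. *CDK1* ranged from -0.11 (without siNT replicate 1) to 0.28 with 1 library left out, and was -0.0349 without siLTBP2 replicate 3. *SPC25* was -0.000707 with upper-quartile factors, -0.0351 with total counts, -0.00713 with no filter and -0.0998 to 0.0756 with 1 library left out (-0.0528 without siLTBP2 replicate 3), and *CDKN1A* was -0.0132 to 0.252, lowest without siLTBP2 replicate 2. Deviations of same-numbered libraries from their group means correlated at 0.298, 0.083 and 0.428 over all genes. Those of different-numbered libraries correlated at -0.391 to 0.103. Over the 44 genes the same-numbered values were 0.667, 0.053 and 0.467, and the different-numbered ones -0.668 to 0.331. The main test used no block because 1 same-numbered value over all genes was under 0.1. That cut does not exclude pairing, and the labels do not state whether the replicates were paired. With the replicate block, 36 of the 44 genes were called higher and 1 lower, *SPC24*, which in the main test did not pass. The block also called 3109 of all 16920 genes tested higher and 3022 lower, against 1652 and 1609 in the main test. The 95% intervals of *CDK1* and *SPC25* in the main test included 0.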
